A study of Arabidopsis thaliana with 16 samples.

Results

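Gibberellin is perceived in Arabidopsis by a short chain of proteins, and 9 genes that encode its central steps were followed here. They are the DELLA repressors GAI, RGA, RGL1, RGL2 and RGL3, the soluble gibberellin receptors GID1A, GID1B and GID1C, and SLY1, the F-box protein that marks DELLAs for destruction. The members were taken by locus code and not by a cut-off on expression, though with earlier results of these data known. They make up 9 of the 33296 named rows of the count table. DELLA proteins sit in the nucleus, bind transcription factors such as the PIFs and BZR1, and thereby hold back elongation of the hypocotyl, the embryonic stem. A GID1 receptor that has bound gibberellin grips the amino-terminal end of a DELLA, and the SLY1-containing ubiquitin ligase then sends the DELLA to the proteasome. Because that control acts on protein, the messenger RNA levels measured here do not report how much DELLA protein the tissue held.

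Messenger RNA was sequenced from hypocotyls of seedlings grown for 6 days at 22 °C or at 28 °C, under 16 h of light and 8 h of dark. Wild-type plants were Col-0. The mutant brl3-2 carries a T-DNA (SALK_006024C) in BRL3, which encodes a receptor kinase for the growth steroid brassinosteroid. A transgene with BRL3-GFP behind the SUC2 promoter, which drives expression in companion cells of the phloem, was put into that mutant to give pSUC2:BRL3;brl3-2 (pSUC2-BRL3 for short). BRL3ox carried BRL3-GFP under the 35S promoter, which is active in most cells, and the labels give no second line for either transgene. Each of the 8 combinations of genotype and temperature had 2 libraries, described as biological replicates, and a p-value here reflects the variation among those libraries alone. In bulk hypocotyl RNA, fewer cells of a type and less RNA per cell cannot be told apart.

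The 5 DELLA genes are single-exon genes, and the family is named for a run of 5 residues near the amino terminus that takes part in receptor binding. The coding stretch around it is shown because these few codons tie the repressors to the receptors, with the 5 codons in capitals. Sequences are from the RefSeq TAIR10.1 genome, 5′ to 3′ on the coding strand, at 1:5149474-5149530 (plus strand) for GAI, 2:257180-257236 (minus) for RGA, 1:24748399-24748455 (plus) for RGL1, 3:821115-821171 (minus) for RGL2 and 5:5765753-5765809 (minus) for RGL3.
GAI: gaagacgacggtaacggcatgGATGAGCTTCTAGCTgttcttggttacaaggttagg
RGA: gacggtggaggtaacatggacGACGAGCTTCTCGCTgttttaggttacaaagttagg
RGL1: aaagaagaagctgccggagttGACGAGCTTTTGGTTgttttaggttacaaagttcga
RGL2: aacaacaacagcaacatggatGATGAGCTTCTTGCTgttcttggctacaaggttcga
RGL3: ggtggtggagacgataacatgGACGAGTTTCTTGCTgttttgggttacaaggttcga
The capitals translate to the same 5 residues in GAI, RGA and RGL2, and to 1 changed residue in RGL1 and in RGL3. Over whole coding sequences GAI and RGA were the closest DELLA pair at 82.0% identity, with a longest shared run of 30 bases, and RGL2 and RGL3 followed at 76.6%. Among the receptors GID1A and GID1C were 83.8% identical with a shared run of 35 bases, whereas GID1B was 70.5% identical to GID1A and 71.5% to GID1C. No annotated gene overlapped any of the 9 members on either strand. How reads that match both members of a close pair were counted is not given in the sources used here.

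Library totals ran from 19013878 to 22791228 counts at 22 °C and from 23021365 to 26563600 at 28 °C. The targeted gene followed the labels, since BRL3 averaged 15 CPM (read counts normalised to library size) at 22 °C and 25.8 CPM at 28 °C in Col-0. Its averages at the same temperatures were 0.661 and 0.885 CPM in the mutant, 52.4 and 174 CPM with the SUC2 transgene, and 766 and 2330 CPM with the 35S transgene. One library stood apart: replicate 2 of BRL3ox at 22 °C differed from its partner by 2-fold or more at 3283 genes, against 885 genes for the pair of pSUC2-BRL3 at 28 °C and 177 to 478 in the 6 other groups. Which library of that pSUC2-BRL3 pair departs cannot be told from those 2 alone. On the main axis of variation over the genes tested (first principal component), replicate 2 lay at 43.1 and replicate 1 at 77.9. The other libraries at 28 °C lay from 56.5 to 84.7. Results were also computed without the BRL3ox library and either pSUC2-BRL3 library. These fits leave 1 library for BRL3ox at 22 °C and 1 for pSUC2-BRL3 at 28 °C. Values from them that use either group rest on 1 library there. Comparisons of other groups keep their libraries, and their adjusted p-values then change with the spread estimate that all groups share. Where the pair in doubt is named without more, the second library is replicate 1 of pSUC2-BRL3 at 28 °C. Those values therefore keep replicate 2, the one outside that range. The summed level of 7 photosynthesis genes (leaf markers) was 94600 to 133000 CPM at 22 °C and 27100 to 46300 CPM at 28 °C, and all 7 were called lower at 28 °C on average over genotypes. The other marker sums overlapped between temperatures for seeds (12 genes, 3.95 to 70.6 against 8.68 to 78 CPM), roots (8 genes, 3.84 to 22.3 against 4.26 to 8.03), phloem (3 genes, 125 to 166 against 117 to 143) and xylem (5 genes, 24.4 to 44.9 against 29.4 to 57.6), but not for the shoot apex with the stomatal lineage (9 genes, 66.5 to 93.1 against 95 to 118). The root sums overlapped only through replicate 2 of BRL3ox at 22 °C, at 3.84 CPM. Every other library at 22 °C was at 9.75 CPM or more for roots, above all those at 28 °C. No marker was at 0 in every library, although the shoot apex gene CLV3, the root genes EXPA7, COBL9, WOX5, NRT2.1, PLT1, PLT2 and IRT1, and the seed genes CRU2, SESA1, SESA2 and SESA4 were at 0 in at least 1. Single markers did not always follow the sums: on average over genotypes 5 of the 8 apex and stomatal genes tested were called lower and 2 higher, with KNAT1 the most abundant at a mean of 50.3 CPM. Of the root markers 3 of 4 tested were called lower, of the seed markers 4 of 11 lower, of the phloem markers 1 of 3 lower and of the xylem markers 2 of 5 higher. In that average 69.3% of all 20505 genes tested were called, 7354 higher and 6859 lower. The shares for seed and phloem markers called lower, and xylem markers called higher, were near that background. The part of these tissues in the results was not tested.

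How each member responded to warmth was asked first. Averaged over the 4 genotypes, 5 of the 9 members rose at 28 °C and none fell, while 69.3% of all 20505 genes tested were called in either direction and 35.9% were called higher. RGL1 and GID1A rose most, by 1.08 and 1.03 on the log2 scale, GID1C, GAI and RGA rose by less, and RGL2, RGL3, GID1B and SLY1 did not pass the test. The median log2 change was 0.48 for the 9 members and 0.03 for all genes. Tests were edgeR's quasi-likelihood F-test, two-sided, with p-values adjusted by Benjamini-Hochberg over all genes tested, and a gene was called at an adjusted p under 0.05. These changes are relative to TMM scaling, which centres the bulk of genes near 0. Scaling each library to its total in its place, an alternative chosen after seeing the data, added 0.52 to 0.67 to the log2 change of every gene with warmth, called all 9 members higher on average, and moved the share of higher calls among all called genes from 51.7% to 83%.

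**Figure D1:**
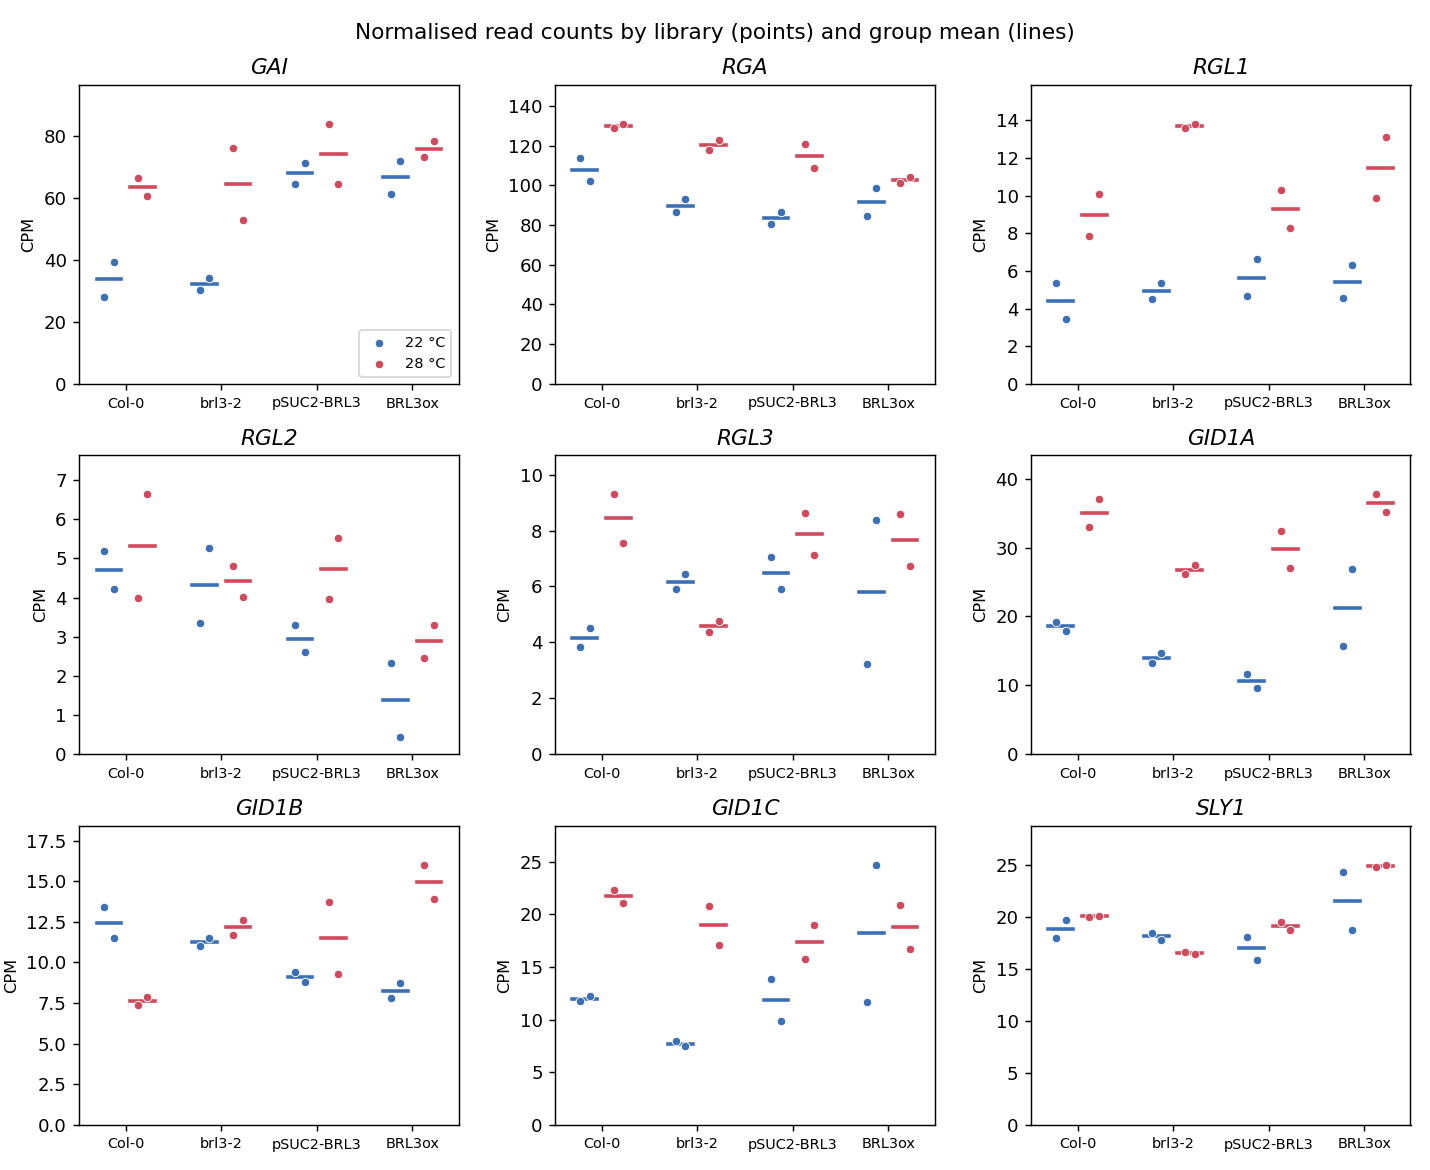
Normalised read counts in CPM (y axes, from 0) of the 9 genes in each of the 16 libraries, by genotype (x axes); points are libraries, blue at 22 °C and red at 28 °C, and lines are means of 2. GAI at 22 °C sits between 28.1 and 39.4 CPM in Col-0 and brl3-2 and between 61.5 and 72 CPM in the transgenic lines, and GID1B falls with warmth in Col-0 and rises in BRL3ox.

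Within single genotypes the counts were 6 in Col-0 (5 higher and 1 lower), against 45% of all genes called and 21.7% called higher. In brl3-2 they were 5, all higher, against 49% called and 25.8% called higher. In pSUC2-BRL3 they were 2, both higher, against 39.1% and 19.6%, and in BRL3ox 3, all higher, against 37.6% and 18.3%. For calls in either direction the members' counts in brl3-2 and BRL3ox were near the background, and with 9 members 1 gene more or fewer moves every such share widely. A count that differs between genotypes is not a difference in response, and the tests of response are given gene by gene. The 2 libraries at each temperature did not overlap for 8 of the 9 members in Col-0 and 8 in brl3-2. In pSUC2-BRL3 and BRL3ox that number was 7 each. The share of all genes without overlap was not computed, so a lack of overlap is given below as a description.

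**Figure D2:**
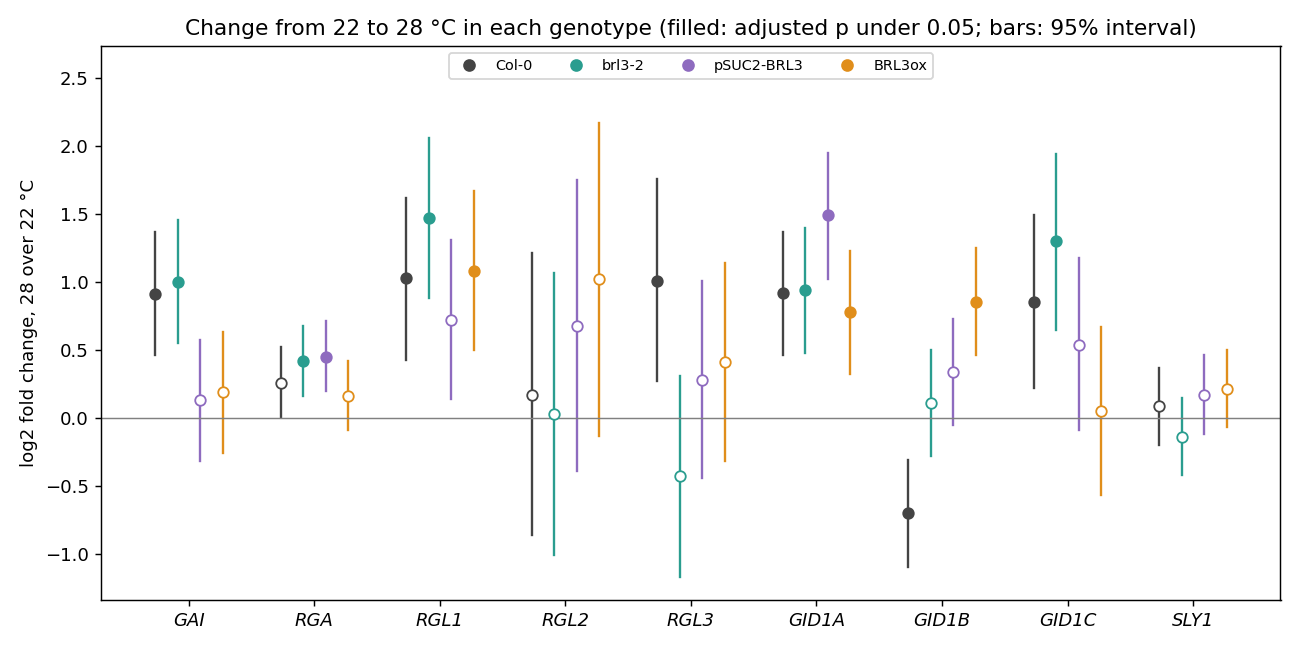
The log2 fold change from 22 to 28 °C (y axis) of each gene (x axis) in the 4 genotypes, with 95% intervals from the fit of 16 libraries; filled points have an adjusted p under 0.05. GID1A is filled in all 4 genotypes, GAI is near 1 in Col-0 and brl3-2 and near 0 in the transgenic lines, and GID1B lies at -0.70 in Col-0 and at 0.85 in BRL3ox.

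RGA and GAI are the DELLAs chiefly credited with restraining vegetative growth, and they were also the most abundant. Per kilobase of exon, RGA made up 50.7% to 73.2% of the summed DELLA level at 22 °C and 51% to 62.1% at 28 °C. GAI made up 17.2% to 39.8% and 25.6% to 36.8%, respectively. RGL1, RGL2 and RGL3, which are best known from seeds, flowers and stress responses, each stayed below 8% in every library, with 7.76% the highest. The summed DELLA level was 55.9 to 78.9 CPM per kilobase at 22 °C and 82.8 to 96.9 at 28 °C, so the 2 temperatures did not overlap.

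GAI (AT1G14920, chromosome 1, 5148982 to 5151415) differed between genotypes at 22 °C. At 22 °C its level was 28.1 and 39.4 CPM in Col-0, 30.2 and 34.2 in brl3-2, 64.7 and 71.3 in pSUC2-BRL3, with 61.5 and 72 in BRL3ox. At 28 °C it was 66.4 and 60.7 CPM in Col-0, 76.3 and 53 in brl3-2, 84 and 64.5 in pSUC2-BRL3, with 73.4 and 78.5 in BRL3ox. Col-0 and brl3-2 at 22 °C thus formed the low end and overlapped each other, and the 6 remaining groups lay higher, at 53 CPM or more, with neighbours in the order of means overlapping throughout.

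Warmth raised GAI in Col-0 by 0.91 on the log2 scale (SE 0.21, adjusted p = 0.00441) and in brl3-2 by 1.00 (SE 0.21, adjusted p = 0.00213). The change was 0.13 in pSUC2-BRL3 (95% interval -0.32 to 0.57, adjusted p = 0.649) and 0.19 in BRL3ox (-0.26 to 0.63, adjusted p = 0.496). Neither transgenic line differed from Col-0 in this response past the threshold, with differences of -0.79 (SE 0.29, adjusted p = 0.176) for pSUC2-BRL3 and -0.73 (SE 0.29, adjusted p = 0.164) for BRL3ox. Without the library that stands apart and replicate 1 of pSUC2-BRL3 at 28 °C, the first of these was -0.99. With replicate 2 of that group left out in place of replicate 1 it was -0.61, and each value rests on 1 library of that group. The rise in Col-0 rested in part on 1 library, since without replicate 1 of Col-0 at 22 °C it was 0.69 with an adjusted p of 0.0517.

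The same gene was the one member called in the same direction in both transgenic lines at 22 °C. In pSUC2-BRL3 it exceeded Col-0 by a log2 difference of 1.01 (SE 0.21, adjusted p = 0.0149). In BRL3ox the difference was 0.98 (SE 0.21, adjusted p = 0.00818), and both comparisons share the 2 Col-0 libraries. Against brl3-2, the mutant background of pSUC2-BRL3, the difference in that line was 1.08 (SE 0.21) with an adjusted p of 0.0558. Over the settings that keep every library that adjusted p ran from 0.000566 with DESeq2 to 0.0817 with a replicate block, and it was 0.0378 without the low-count filter. Without the pair in doubt the difference was called, at 1.08 with an adjusted p of 0.00716, or of 0.00686 with the other pSUC2-BRL3 library left out. In brl3-2 itself GAI differed from Col-0 by -0.07 (95% interval -0.52 to 0.39, adjusted p = 0.901). At 28 °C no line differed from Col-0 past the threshold, with log2 differences of 0.02, 0.22 and 0.26 in brl3-2, pSUC2-BRL3 and BRL3ox. The calls at 22 °C were lost without replicate 1 of Col-0, with adjusted p-values of 0.146 for pSUC2-BRL3 and 0.0780 for BRL3ox, and the pSUC2-BRL3 call also without either of its own libraries.

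**Figure D3:**
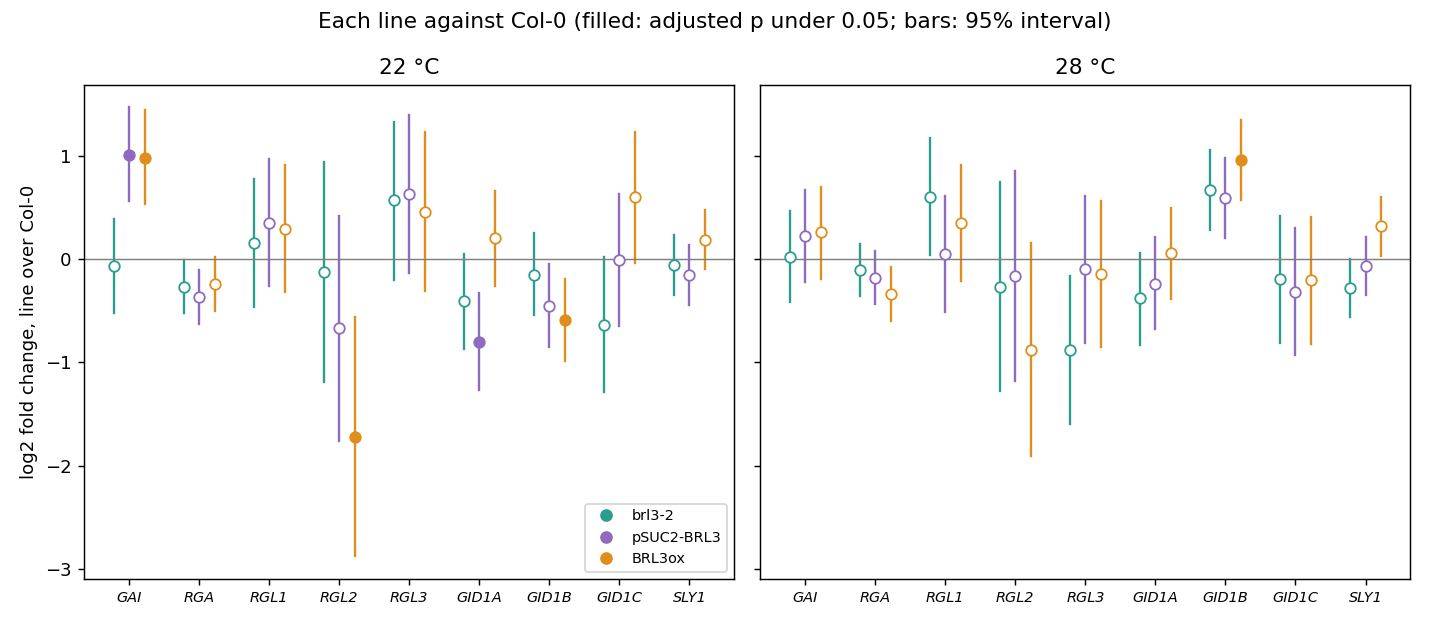
The log2 fold change of each gene (x axis) between a line and Col-0 (y axis) at 22 °C (left) and 28 °C (right), with 95% intervals; filled points have an adjusted p under 0.05. At 22 °C GAI stands at 1.01 in pSUC2-BRL3 and 0.98 in BRL3ox, and at 28 °C the 1 filled point is GID1B in BRL3ox.

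RGA (AT2G01570, chromosome 2, 255247 to 257568), the closest relative of GAI, held a narrower range. In the cooler plants RGA was at 114 and 102 CPM in Col-0, 86.6 and 93.1 in brl3-2, 80.7 and 86.5 in pSUC2-BRL3, with 84.5 and 98.5 in BRL3ox. In the warm-grown plants it was at 129 and 131 CPM in Col-0, 118 and 123 in brl3-2, 121 and 109 in pSUC2-BRL3, with 101 and 104 in BRL3ox. Both libraries at 28 °C exceeded both at 22 °C in every genotype, although the Col-0 libraries at 22 °C overlapped those of BRL3ox at 28 °C. RGA rose with warmth by 0.42 in brl3-2 (SE 0.12, adjusted p = 0.0117) and by 0.45 in pSUC2-BRL3 (SE 0.12, adjusted p = 0.0105), and the change was 0.26 in Col-0 (adjusted p = 0.0875) and 0.16 in BRL3ox (adjusted p = 0.296). Averaged over genotypes the rise was 0.32 (SE 0.06, adjusted p = 0.000412). The call in brl3-2 was lost without its replicate 1 at 22 °C or 2 at 28 °C, and that in pSUC2-BRL3 without its replicate 1 at either temperature, with adjusted p from 0.0734 to 0.0879.

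RGL1 (AT1G66350, chromosome 1, 24748105 to 24750186) was the DELLA with the largest rise in the average over genotypes and the only member whose 8 libraries at 28 °C all exceeded the 8 at 22 °C. The share of all genes that separate in this way was not computed, so the separation is a description. RGL1 ran from 3.43 to 6.65 CPM with a median of 5.0 at 22 °C, and from 7.84 to 13.8 CPM with a median of 10.2 at 28 °C. The rise was 1.03 in Col-0 (SE 0.27, adjusted p = 0.0104), 1.47 in brl3-2 (SE 0.27, adjusted p = 0.00103) and 1.08 in BRL3ox (SE 0.27, adjusted p = 0.00874), and the change in pSUC2-BRL3 was 0.72 (SE 0.27, adjusted p = 0.0505). The average rise was 1.08 (SE 0.13, adjusted p = 2.48e-05). The call in Col-0 was lost without replicate 2 at 22 °C (0.75, adjusted p = 0.0913) or at 28 °C (0.83, adjusted p = 0.0768), and that in BRL3ox without replicate 2 at 28 °C (0.86, adjusted p = 0.0725).

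RGL2 (AT3G03450, chromosome 3, 819337 to 821652), the main DELLA of seed germination, was the least abundant member. Its libraries held 7 to 183 counts, or 0.44 to 6.63 CPM. In the cooler plants it was at 5.19 and 4.21 CPM in Col-0, 3.36 and 5.26 in brl3-2, 3.30 and 2.60 in pSUC2-BRL3, with 2.33 and 0.44 in BRL3ox. The log2 difference of -1.72 between BRL3ox and Col-0 (SE 0.53, adjusted p = 0.0321) leaned on the library that stands apart, which held those 7 counts, and without it was -1.01 with an adjusted p of 0.137. With replicate 1 of BRL3ox left out in its place the difference was -3.4 (adjusted p = 0.000484), which then rests on those 7 counts. The call was also lost without either Col-0 library at 22 °C. No warmth change of RGL2 was called in any genotype.

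RGL3 (AT5G17490, chromosome 5, 5763989 to 5766246), known as a jasmonate-responsive DELLA, was higher with warmth in both libraries of the wild type and lower in both of the mutant. RGL3 at 22 °C was at 3.82 and 4.53 CPM in Col-0 and 5.90 and 6.44 in brl3-2. RGL3 at 28 °C was at 9.29 and 7.57 CPM in Col-0 and 4.38 and 4.78 in brl3-2, so the groups did not overlap within either genotype. The same held for SLY1, which was called in neither genotype. RGL3 rose in Col-0 by 1.01 (SE 0.34, adjusted p = 0.0309), and the change in brl3-2 was -0.43 (SE 0.34, adjusted p = 0.309) or 0.09 with scaling to library totals. The call in Col-0 was lost without any 1 of its 4 libraries, with adjusted p from 0.0569 to 0.156. The difference between these responses, -1.45 (SE 0.48), had an adjusted p of 0.164, and of 0.00822 without the pair of libraries in doubt. In pSUC2-BRL3 it was at 7.05 and 5.90 CPM at 22 °C and 8.61 and 7.13 at 28 °C, and in BRL3ox at 3.22 and 8.36 and then 8.58 and 6.72, so only the BRL3ox groups overlapped, through the library that stands apart. The change with warmth was 0.41 in BRL3ox (SE 0.33, adjusted p = 0.352) and 0.32 on average (adjusted p = 0.109). Without the pair in doubt these were 1.25 and 0.49, with 1 library left for BRL3ox at 22 °C. Over the fits that left out 1 library the change in BRL3ox ran from -0.13 to 1.25.

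The receptors as a set also had more RNA at 28 °C. Their summed level was 14.7 to 31.7 CPM per kilobase at 22 °C and 29 to 38.8 at 28 °C, and the one library at 22 °C above 23 was replicate 2 of BRL3ox. GID1A was the largest part of that sum at 28 °C, at 44.6% to 55.9%, and made up 33.2% to 44.7% at 22 °C. GID1C made up 23.3% to 42.2% at 22 °C and 26.5% to 36.8% at 28 °C, and GID1B 13.5% to 32.4% and 11% to 20.9%.

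**Figure D4:**
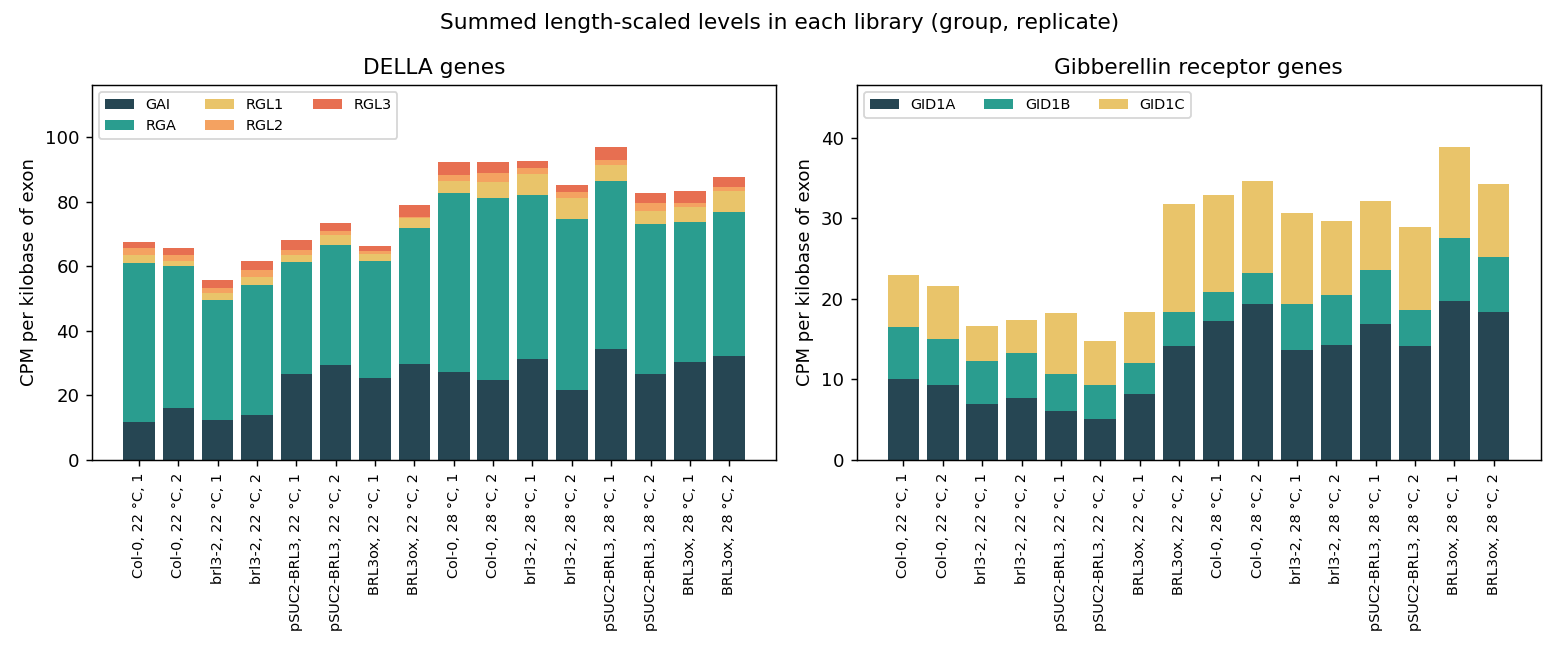
Levels per kilobase of exon (y axes, from 0) of the 5 DELLA genes (left) and the 3 receptor genes (right), stacked in each of the 16 libraries (x axes, group and replicate). RGA and GAI fill most of each DELLA bar, the DELLA bars at 28 °C all exceed those at 22 °C, and the tall receptor bar at 22 °C is replicate 2 of BRL3ox at 31.7.

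GID1A (AT3G05120, chromosome 3, 1430363 to 1432844) was the member called higher with warmth in all 4 genotypes. GID1A at 22 °C was at 19.2 and 17.9 CPM in Col-0, 13.2 and 14.7 in brl3-2, 11.6 and 9.66 in pSUC2-BRL3, with 15.7 and 26.9 in BRL3ox. GID1A at 28 °C was at 33 and 37.1 CPM in Col-0, 26.2 and 27.4 in brl3-2, 32.4 and 27.1 in pSUC2-BRL3, with 37.7 and 35.2 in BRL3ox. Within each genotype the temperatures did not overlap, and the 1 high library at 22 °C was again replicate 2 of BRL3ox.

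The rises of GID1A were 0.92 in Col-0, 0.94 in brl3-2, 1.49 in pSUC2-BRL3 and 0.78 in BRL3ox on the log2 scale, each with an SE of 0.21 and with adjusted p-values from 0.000412 to 0.0128. The call in BRL3ox was lost without its replicate 1 at 28 °C (0.73, adjusted p = 0.0657). Without the library that stands apart and either pSUC2-BRL3 library the rise in BRL3ox was 1.21 or 1.22, with 1 library left at 22 °C. Over the fits that left out 1 library it ran from 0.44 to 1.21. At 22 °C GID1A was lower in pSUC2-BRL3 than in Col-0 by a log2 difference of -0.80 (SE 0.21, adjusted p = 0.0375). That call was lost in 13 of the 16 fits that left out 1 library, with adjusted p up to 0.22, and was 0.000734 without the pair in doubt.

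GID1C (AT5G27320, chromosome 5, 9628990 to 9631291), the close relative of GID1A, was called higher with warmth in Col-0 and brl3-2. At 22 °C it was at 11.8 and 12.2 CPM in Col-0, 7.97 and 7.46 in brl3-2, 13.9 and 9.89 in pSUC2-BRL3, with 11.7 and 24.7 in BRL3ox. At 28 °C it was at 22.3 and 21.1 CPM in Col-0, 20.8 and 17.1 in brl3-2, 15.8 and 19 in pSUC2-BRL3, with 20.9 and 16.7 in BRL3ox. Only in BRL3ox did the temperatures overlap, through the library that stands apart. The rise was 0.85 in Col-0 (SE 0.29, adjusted p = 0.0315) and 1.3 in brl3-2 (SE 0.30, adjusted p = 0.00383). In pSUC2-BRL3 the change was 0.54 (adjusted p = 0.153), or 0.67 without the pair in doubt. With replicate 2 of pSUC2-BRL3 at 28 °C left out in place of replicate 1, the change was not called. For BRL3ox it was 0.05 (adjusted p = 0.901), or 0.69 once the pair in doubt was left out, with 1 library left at 22 °C. Over the fits that left out 1 library it ran from -0.39 to 0.69 in BRL3ox. The call in Col-0 was lost without any 1 of its 4 libraries, with adjusted p up to 0.125.

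GID1B (AT3G63010, chromosome 3, 23289243 to 23291486) is the receptor known for the tightest hold on DELLAs, and it was the 1 member whose response to warmth differed between genotypes past the threshold. At 22 °C it was at 13.4 and 11.5 CPM in Col-0, 11 and 11.5 in brl3-2, 9.40 and 8.79 in pSUC2-BRL3, with 7.78 and 8.74 in BRL3ox. At 28 °C it was at 7.39 and 7.89 CPM in Col-0, 11.7 and 12.6 in brl3-2, 13.7 and 9.31 in pSUC2-BRL3, with 16 and 13.9 in BRL3ox. Col-0 was therefore at the top of the order at 22 °C and at the bottom at 28 °C, and BRL3ox at the reverse ends, with no overlap between these lines at either temperature.

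With warmth GID1B fell by 0.70 on the log2 scale in Col-0 (SE 0.18, adjusted p = 0.00852) and rose by 0.85 in BRL3ox (SE 0.18, adjusted p = 0.0039). The fall depended on scaling, since with libraries scaled to their totals it was -0.17 with an adjusted p of 0.479. It also lost its call without replicate 1 of Col-0 at 22 °C (-0.59, adjusted p = 0.0708) or at 28 °C (-0.65, adjusted p = 0.0616). The change was 0.11 in brl3-2 (adjusted p = 0.625) and 0.34 in pSUC2-BRL3 (adjusted p = 0.153).

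The response of GID1B in BRL3ox exceeded that in Col-0 by 1.56 (SE 0.25, 95% interval 1.00 to 2.11, adjusted p = 0.0165), the 1 member called in that comparison against 2.58% of all genes. In each setting that kept all libraries the difference stayed called, with scaling to totals included. The difference was 1.64 without the pair in doubt, with 1 library left for BRL3ox at 22 °C. It lost the call without replicate 1 of Col-0 at 22 °C, or without any 1 of the libraries of Col-0 or BRL3ox at 28 °C, with values from 1.44 to 1.65 and adjusted p up to 0.107. For brl3-2 and pSUC2-BRL3 the corresponding differences from Col-0 were 0.82 (SE 0.25, adjusted p = 0.143) and 1.04 (SE 0.25, adjusted p = 0.0619), and without the pair in doubt they were 0.81 and 0.73. The latter was 1.3 with replicate 2 of pSUC2-BRL3 at 28 °C left out in place of replicate 1, so both values for that line rest on 1 library at 28 °C. All 3 of these differences use the same 4 Col-0 libraries.

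SLY1 (AT4G24210, chromosome 4, 12563279 to 12564482), the F-box subunit, moved least. It was at 15.9 to 24.3 CPM with a median of 18.3 at 22 °C and at 16.4 to 25.0 CPM with a median of 19.8 at 28 °C, so the temperatures overlapped over all libraries. Its change with warmth lay between -0.14 and 0.21 in the 4 genotypes and was called in none. The 95% interval of the average change ran from -0.06 to 0.23. In BRL3ox at 28 °C it was at 24.8 and 25 CPM against 20 and 20.1 in Col-0, a log2 difference of 0.32 (SE 0.13) with an adjusted p of 0.243, and of 0.0352 without the pair in doubt.

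What the BRL3 genotype did to the members at a fixed temperature was asked next. At 22 °C no member was called between brl3-2 and Col-0, against 2.24% of all genes by edgeR, with 1 member, RGA, at an unadjusted p under 0.05 and none called by DESeq2. In pSUC2-BRL3, GAI was higher and GID1A lower, 2 of 9 against 10.6% of all genes. In BRL3ox, GAI was higher and RGL2 and GID1B lower, 3 of 9 against 30.2%, a share near the background. At 28 °C the edgeR count was 0 in brl3-2 against 3.62%, with 3 members, RGL1, RGL3 and GID1B, at an unadjusted p under 0.05 and 1 called by DESeq2. It was 0 in pSUC2-BRL3 against 0.858%, with 1 at an unadjusted p under 0.05 and none by DESeq2. In BRL3ox GID1B was called higher, by 0.96 (SE 0.18, adjusted p = 0.0219), 1 of 9 against 2.07%, and this call was lost without any 1 of the 4 libraries compared, with adjusted p from 0.0994 to 0.202. The GID1B difference at 22 °C was -0.59 (SE 0.18, adjusted p = 0.032), and leaving out any 1 of the 4 libraries compared, or replicate 2 of brl3-2 at 28 °C, took its adjusted p to between 0.0609 and 0.18.

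Adding BRL3 back in the phloem was compared with its own mutant background. Between pSUC2-BRL3 and brl3-2 no member was called by edgeR at 22 °C, against 0.307% of all genes, nor at 28 °C, against 1.61%. At each temperature 1 member had an unadjusted p under 0.05, GAI at 22 °C and RGL3 at 28 °C, and DESeq2 called 1 and 0. For the responses to warmth relative to Col-0, the edgeR count was 0 in brl3-2 against 0.878%, with 2 members at an unadjusted p under 0.05 and none by DESeq2, and 0 in pSUC2-BRL3 against 1.95%, with 2 at an unadjusted p under 0.05 and 1 by DESeq2.

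These counts moved with the libraries in doubt. Neither left-out library belongs to Col-0, to brl3-2 or to pSUC2-BRL3 at 22 °C, so log2 differences among those groups hardly moved. With all libraries GID1A and GID1C in brl3-2 against Col-0 at 22 °C were at -0.41 and -0.64. The added calls among those groups go with the spread estimate shared over the fit and not with a changed difference. With replicate 1 of pSUC2-BRL3 at 28 °C and the BRL3ox library that stands apart both left out, 16.4% of genes were called between brl3-2 and Col-0 at 22 °C, and GID1A and GID1C were called lower there, by -0.41 (adjusted p = 0.035) and -0.63 (adjusted p = 0.0396). Between pSUC2-BRL3 and Col-0 at 22 °C, RGA at -0.37 (adjusted p = 0.00929), RGL3 at 0.64 (adjusted p = 0.029) and GID1B at -0.45 (adjusted p = 0.0197) joined GAI and GID1A, against 31.6% of genes. At 28 °C the mutant was then called lower than Col-0 for RGL3, at -0.88 (adjusted p = 0.0091), and GID1A, at -0.38 (adjusted p = 0.0336), and higher for GID1B, at 0.67 (adjusted p = 0.00557), against 14.2%. Between BRL3ox, then with 1 library, and Col-0 at 22 °C the log2 differences included 0.87 for GAI, -0.35 for RGA, -0.67 for GID1B and 0.37 for SLY1.

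Genes that make gibberellin were called in both directions, and the calls among genes that break it down were all upward. The gene lists were chosen with earlier results of these data known, and counts are for the average warmth change. Of 14 synthesis genes 9 were tested, 3 rose and 4 fell, with a median of -0.34 against 0.03 for all genes, or 5 and 2 with scaling to library totals. GA2, the ent-kaurene synthase, rose by 1.52 (SE 0.17, adjusted p = 9.32e-06), while KAO2, an ent-kaurenoic acid oxidase, fell by 0.36 (SE 0.05, adjusted p = 5.15e-05) but was at 0.21 with scaling to totals. Of 11 inactivation genes 6 were tested, 4 rose and none fell, with a median of 1.02. Over all genes 35.9% were called higher and 69.3% in either direction. Within Col-0 none of the 6 inactivation genes was called and their median was 0.02, while 1 was called higher in brl3-2, 3 in pSUC2-BRL3 and 2 in BRL3ox. Of all genes 21.7% were called higher in Col-0, 25.8% in brl3-2, 19.6% in pSUC2-BRL3 and 18.3% in BRL3ox. In either direction the shares were 45%, 49%, 39.1% and 37.6%. Such counts are not a test of a difference between genotypes.

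Among the inactivation genes, CYP714A1, a gibberellin-modifying cytochrome P450, rose by 1.59 on average (SE 0.26, adjusted p = 0.000213) from means of 0.406 to 0.58 CPM at 22 °C. It was called in pSUC2-BRL3 (1.81, adjusted p = 0.0147) and BRL3ox (3.09, adjusted p = 0.000931). Its change was 1.05 in Col-0 (adjusted p = 0.148) and 0.42 in brl3-2 (adjusted p = 0.536). No line's response of CYP714A1 differed from that of Col-0 past the threshold (adjusted p from 0.154 to 0.73). GA2OX6, a gibberellin 2-oxidase, averaged 5.94 and 5.97 CPM in Col-0 at 22 and 28 °C, and 11.7 and 50.6 CPM in brl3-2. It rose by 2.11 in brl3-2 (adjusted p = 0.00344). The rises in the transgenic lines were 2.03 for pSUC2-BRL3 (adjusted p = 0.00951) and 1.78 for BRL3ox (adjusted p = 0.0151). No response of GA2OX6 differed from that of Col-0 past the threshold (adjusted p from 0.151 to 0.157). At 28 °C it was higher in brl3-2 than in Col-0 by 3.08 (SE 0.49, adjusted p = 0.00801) and lower in pSUC2-BRL3 than in brl3-2, at -2.15 (SE 0.47, adjusted p = 0.0477).

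Genes that act on DELLA protein or bind it had more calls upward than downward on average, beside 35.9% of all genes called higher and 69.3% called in either direction. Of the 12 stability and modification genes, all tested, 7 rose and 2 fell with a median of 0.37, or 11 and 0 with scaling to totals. OTS2, a SUMO protease that acts on DELLAs, rose by 0.98 (SE 0.05, adjusted p = 4.66e-08), and SPA1, a partner of the COP1 ubiquitin ligase, by 0.84 (SE 0.09, adjusted p = 9.13e-06). Of 19 DELLA-binding partners 17 were tested, 8 rose and 2 fell with a median of 0.31, or 13 and 1 with scaling to totals. ARF6, an auxin response factor, rose by 1.44 (SE 0.13, adjusted p = 1.79e-06).

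JKD, a zinc-finger partner of DELLAs, rose by 1.03 on average (SE 0.11, adjusted p = 6.8e-06). Its mean level at 22 °C was 9.28 CPM in Col-0, 17.3 in brl3-2, 27.2 in pSUC2-BRL3 and 22.4 in BRL3ox, and at 28 °C it was 36.8, 32.8, 35.2 and 39.6 CPM. It was higher than in Col-0 at 22 °C by 1.55 in pSUC2-BRL3 (SE 0.23, adjusted p = 0.00446) and by 1.28 in BRL3ox (SE 0.23, adjusted p = 0.00468). In brl3-2, where the GAI difference was -0.07, the difference of JKD from Col-0 was 0.90 (SE 0.23, adjusted p = 0.0635).

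Genes that DELLAs or gibberellin control divided between rises and falls. Of 8 DELLA targets, 2 rose and 2 fell with a median of -0.19, or 5 and 0 with scaling to totals. Over all genes 35.9% were called higher and 69.3% in either direction. Falls outnumbered rises among the targets without the pair in doubt. The same held with replicate 2 of pSUC2-BRL3 at 28 °C left out in place of replicate 1. SCL3, a target that acts against the DELLAs, fell by 0.49 on average (SE 0.12, adjusted p = 0.00268), or was at 0.08 with scaling to totals. Its change was -1.2 in Col-0 (adjusted p = 0.00191) and -0.74 in brl3-2 (adjusted p = 0.0223). In pSUC2-BRL3 it was -0.16 (adjusted p = 0.613) and in BRL3ox 0.12 (adjusted p = 0.709). No response of SCL3 differed from that of Col-0 past the threshold (adjusted p from 0.0573 to 0.523). Its mean at 22 °C was 38.5 CPM in Col-0 against 19.9 in brl3-2, 14 in pSUC2-BRL3 and 19.2 in BRL3ox. SCL3 was lower than in Col-0 in pSUC2-BRL3, at -1.46 (SE 0.24, adjusted p = 0.00676), and in BRL3ox, at -1.0 (SE 0.23, adjusted p = 0.0115), and at -0.95 in brl3-2 (adjusted p = 0.0602). A MYB-like gene, MYB at AT3G11280, fell by 0.69 (SE 0.10, adjusted p = 7.74e-05), and was at -0.12 (adjusted p = 0.361) with scaling to totals.

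Beside 35.9% of all genes called higher and 69.3% in either direction, 3 of 9 genes induced during gibberellin-driven growth rose and 2 fell. Their median was -0.25, and with scaling to totals 4 rose and 1 fell. The genotypes differed in these counts, with 4 higher and 1 lower in Col-0 (median 0.77) and 2 and 1 in brl3-2 (median 0.11). Among the transgenic lines they were 2 and 5 for pSUC2-BRL3 (median -1.31), then 3 and 2 for BRL3ox (median 0.08). Of all genes 45% were called in either direction in Col-0, 49% in brl3-2, 39.1% in pSUC2-BRL3 and 37.6% in BRL3ox. By the test of the response relative to Col-0, 2 of the 9 were called lower in pSUC2-BRL3, 1 in brl3-2 and 1 in BRL3ox. The shares of all genes called in either direction by those tests were 1.95%, 0.878% and 2.58%. GASA14, a small secreted protein gene, rose by 3.26 (SE 0.26, adjusted p = 7.24e-07), from a mean of 14.9 to 231 CPM in Col-0 and from 99.4 ± 84.5 to 380 ± 35.1 CPM (SD, n = 2) in BRL3ox. GASA4 of the same family fell by 1.10 (SE 0.10, adjusted p = 2.71e-06).

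The genes most like each member over the 16 libraries were none of the other members. Likeness was Pearson's r of log2 CPM among genes with a symbol and a mean of at least 5 CPM, and it is a description, because all points share libraries and the temperature contrast. The calcium-dependent kinase CPK30 followed GAI at r = 0.948, with 0.95 over the 8 libraries at 22 °C and 0.78 over the 8 at 28 °C. HUB1, a histone ubiquitin ligase, followed GID1C at 0.967, and VAM3 and NET1D followed GID1A at 0.954 each. GAUT6 followed RGL1 at 0.947, ILA followed RGL2 at 0.929, RLK4 followed RGA at 0.925 and GLTP3 followed RGL3 at 0.856. Within 1 temperature r could be lower. At 22 and 28 °C it was 0.97 and 0.68 for HUB1, 0.86 and 0.65 for VAM3, and 0.64 and 0.96 for GAUT6. The closest to GID1B, LCR69, reached 0.765, and the closest to SLY1, RLP51, 0.763.

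Motifs read by factors that meet the DELLAs were looked for in the promoters, and their number in the members was near the background. In the 300 bases from 250 before to 50 after each annotated start in TAIR10.1, on both strands, the G-box CACGTG occurred in none of the 9 members and in 7.68% of 27443 promoters. The related PIF-binding letters CACATG occurred in GID1B alone, against 12.9% of promoters. The brassinosteroid-response letters CGTGTG occurred in none, against 6.52%, and CGTGCG in GID1A alone, against 1.96%. A match describes these letters in this window and is not evidence of binding.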

How the data were processed

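RNA from 16 hypocotyl samples was sequenced from stranded mRNA libraries. The deposited values are raw read counts per gene, and per the submitters' processing notes they come from FastQC 0.11.2, Trimmomatic 0.38, HISAT2 2.1 on TAIR10 and featureCounts 1.6.2, with edgeR 3.34.1 named for the authors' own tests. No source used here gives the annotation release, the strand setting or the treatment of multiply matching reads. The 1 row without a gene name, 0.00132% to 0.00463% of counts, was left out, and 7100 named rows had no count. The 9 members and the gene lists were chosen with earlier results of these data known.

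Genes with enough counts in the smallest group (minimum 10, total 15) were kept, 20505 in all and all 9 members among them. One edgeR 4.0.16 quasi-likelihood fit under R 4.3.3 used all 16 libraries with TMM scaling, had 1 mean for each of the 8 groups and 8 residual degrees of freedom, and was checked on simulated counts. CPM are counts normalised to TMM-scaled library size, and levels per kilobase divide by merged exon length in TAIR10.1. Log2 values for likeness used a prior count of 2. All members were named, with up to 2 genes per pathway list (smallest p in the average warmth change) and the 2 genes most like each member, of which 1 or 2 are given. Alternatives were a replicate block, no filter on low counts, DESeq2 1.42.0, DESeq2 size factors in edgeR, each library left out in turn and the pair in doubt left out. Leaving out the other pSUC2-BRL3 library, scaling to totals and nuclear protein-coding genes alone were added after seeing the data. Figures used matplotlib 3.10.9.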

Additional observations from a re-analysis of the deposited data

Results flagged for a closer look

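Of the members, GID1B was singled out because its response to warmth differed between genotypes by the test of the difference itself. The response in BRL3ox minus that in Col-0 was 1.56 on the log2 scale (SE 0.25, edgeR adjusted p = 0.0165), from a fall of 0.70 in Col-0 and a rise of 0.85 in BRL3ox. Of the pathway genes, JKD met the same criterion. Its response in pSUC2-BRL3 minus that in Col-0 was -1.62 (SE 0.31, edgeR adjusted p = 0.0306), from a rise of 1.99 in Col-0 (adjusted p = 8.63e-05) and a change of 0.37 in pSUC2-BRL3 (adjusted p = 0.188). The JKD call was lost in 11 of the 16 fits that left out 1 library.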

How the results depend on the processing

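Of 21 member calls in the warmth comparisons 12 held in all 16 fits that left out 1 library, of 7 member calls elsewhere 0 did, and of 13 pathway-gene calls 12 did. Those 12 pathway calls are average warmth changes of genes named for a small p in that same contrast. Their holding was favoured by that choice and cannot be set beside the members' counts. Pathway-gene calls within single genotypes or between lines were not put through these fits. Without 1 library the number of members called ran from 2 to 7 for warmth in Col-0, 4 to 5 in brl3-2, 1 to 4 in pSUC2-BRL3, 2 to 5 in BRL3ox and 5 to 7 on average. At 22 °C it ran from 0 to 1 for brl3-2, 0 to 4 for pSUC2-BRL3 and 0 to 5 for BRL3ox against Col-0, and at 28 °C from 0 to 2, 0 to 1 and 0 to 3. For pSUC2-BRL3 against brl3-2 it ran from 0 to 2 in the cool and 0 to 1 in the warmth, and for the responses relative to Col-0 from 0 to 1 in brl3-2, 0 to 1 in pSUC2-BRL3 and 0 to 4 in BRL3ox. In those fits the log2 change of warmth spanned 0 for GAI in pSUC2-BRL3 (-0.08 to 0.32), GID1C in BRL3ox (-0.39 to 0.69), RGL2 in Col-0 (-0.23 to 0.5) and brl3-2 (-0.25 to 0.39) and RGL3 in BRL3ox (-0.13 to 1.25), as did GAI in brl3-2 against Col-0 at 22 °C (-0.29 to 0.2).

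Scaling to library totals called 8 members for warmth in pSUC2-BRL3 (2 with TMM), 9 in BRL3ox (3) and 9 on average (5). It moved the share of higher calls among all called genes from 48.2% to 81.8% in Col-0, 52.6% to 81.6% in brl3-2, 50.2% to 88.1% in pSUC2-BRL3 and 48.7% to 90.8% in BRL3ox, and genes called in BRL3ox from 7713 to 12046. It turned the sign of RGL3 (0.09) and SLY1 (0.38) with warmth in brl3-2, GAI in brl3-2 at 22 °C (0.02), and KAO2 (0.21) and SCL3 (0.08) on average. With nuclear protein-coding genes alone RGL2 in brl3-2 was -0.02 and GID1C in BRL3ox -0.01, and without the pair in doubt GAI in pSUC2-BRL3 was -0.08. The cause was not tested.

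Leaving out replicate 2 of BRL3ox at 22 °C with either pSUC2-BRL3 library at 28 °C called 5 members for warmth in BRL3ox, 2 for brl3-2, 5 for pSUC2-BRL3 at 22 °C, 3 for brl3-2 and 3 for BRL3ox at 28 °C, 3 for pSUC2-BRL3 against brl3-2 at 22 °C, and 2 for the response of brl3-2 and of pSUC2-BRL3. With replicate 2 of pSUC2-BRL3 left out there were also 4 for its warmth change, 1 against Col-0 and 1 against brl3-2 at 28 °C. DESeq2 called 1 member for brl3-2 and 2 for BRL3ox at 28 °C, 1 for pSUC2-BRL3 against brl3-2 at 22 °C and 1 for the response of pSUC2-BRL3, and without the low-count filter 1 was called for pSUC2-BRL3 against brl3-2 at 22 °C.

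Genes called moved by over 1.5 times: 6197 to 3516 for BRL3ox, 460 to between 168 and 3433 for brl3-2 and 2176 to 6594 for pSUC2-BRL3 at 22 °C, and 424 to 3488, 743 to 2958 and 176 to between 112 and 2145 at 28 °C. For pSUC2-BRL3 against brl3-2 they went from 63 to between 1 and 3724 in the cool and 330 to 2661 in the warmth, and for the responses from 529 to between 311 and 1810 (BRL3ox), 180 to between 60 and 2796 (brl3-2) and 400 to between 212 and 3264 (pSUC2-BRL3). Same-numbered replicates of 28 pairs of groups deviated with r from -0.29 to 0.27 (median 0, 8 over 0.1), so the numbers were not taken as pairs. The replicate block gave each of the lowest of these paired bounds, and took the members called for pSUC2-BRL3 at 22 °C from 2 to 1. RGL2, with 7 to 183 counts a library, is the member most limited by depth.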
